A study of Mus musculus with 3 samples.

Results

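The tumor necrosis factor (TNF) ligand and receptor superfamilies were followed through macrophages sorted from the heart, the kidney and the liver of C57BL/6 mice aged 8 weeks, with 1 RNA-seq library for each tissue and no treatment or engineered allele named in any group. Heart, kidney and liver cells below stand for these 3 libraries. The sort kept cells positive for CD11b and for the macrophage antigen encoded by Adgre1 and negative for Ly6G and Ly6C, the RNA was amplified with a low-input kit, and the liver sample carries the label Kupffer cells, which reside in the sinusoids. How many animals gave cells to a library is not given in the sources used here. Members were all genes whose symbol starts with Tnfsf or Tnfrsf, each taken as its longest coding RefSeq transcript. They numbered 32 of 24453 gene symbols, 12 ligand genes and 20 receptor genes. Superfamily genes under other symbols, such as Tnf, Fas and Cd40, were kept apart as lists beside the members.

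Ligands of this superfamily are mostly membrane proteins of one cell that bind receptors on another, and some are shed as soluble cytokines. The receptors recruit TRAF adaptors, which lead to NF-κB and MAP kinase signalling, or, where they carry a death domain, adaptors that can lead to cell death. Macrophages are known as a source of TNF itself, of ligands that costimulate T cells, and of BAFF and APRIL, which sustain B cells and plasma cells.

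Levels are given in RPKM (reads per kilobase and per 1000000 reads) as the authors deposited them, and can be compared between genes since they are per length. Whole reads were recovered from the RPKM, 14460630 in heart, 15550833 in kidney and 16743420 in liver cells over all transcripts. A read on several transcripts is counted for each of them in these totals, to which the RPKM are scaled. With 1 transcript per gene the totals were 8751978, 9485368 and 10373696. Intervals are exact 95% Poisson intervals of RPKM, or exact 95% Clopper-Pearson intervals of a ratio. They reflect counting error alone, since each tissue has 1 library. PCR copies could not be separated, so even for counting error the intervals may be too narrow. Without replicates nothing could be tested against differences between mice, and each comparison is a description of 3 libraries. A difference was taken on log2(RPKM + 1) among the 11482 genes that reached 1 RPKM in a library, and at least 2 log2 units counted as 4-fold. Folds are ratios of RPKM without the added 1, and a fold against 0 reads is a lower bound against 3 reads. All 8 macrophage markers examined, among them Adgre1, Csf1r and Lyz2, had RPKM of at least 1 in each library, with a summed level of 2270.0 RPKM in heart, 2046 in kidney and 2128 in liver cells.

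Promoter sequences are shown for genes whose levels set the libraries apart and whose window holds at most 19 bases of an annotated exon: the ligand genes Tnfsf18, Tnfsf13b and Tnfsf12, the last sharing its start with Tnfsfm13, and the receptor gene Tnfrsf12a. They were chosen after their values were seen. They are RefSeq sequences of GRCm38.p6, the assembly called mm10, and cover the 250 bases ahead of an annotated start, 5′ to 3′ on the strand of the gene. Capitals mark TATAAA, a core promoter element, and GAGGAAG, a PU.1 motif, on either strand, and 0 matches to any motif searched fell in the other 3 windows as printed. The Tnfsf13b window is that of an upstream start, not of the transcript whose level is given. The window of that transcript, chr8:10006383-10006632, holds 166 exon bases and is not printed, and it has an AP-1 match beginning 127 bases and an interferon-stimulated response element match beginning 16 bases before its start.
Tnfsf18 (chr1:161494407-161494656, plus strand): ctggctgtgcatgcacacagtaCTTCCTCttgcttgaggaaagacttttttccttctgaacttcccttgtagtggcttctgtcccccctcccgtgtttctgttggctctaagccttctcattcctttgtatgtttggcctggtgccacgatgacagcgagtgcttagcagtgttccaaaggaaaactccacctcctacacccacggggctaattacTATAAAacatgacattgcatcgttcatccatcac
Tnfsf13b, upstream start (chr8:10006217-10006466, plus strand): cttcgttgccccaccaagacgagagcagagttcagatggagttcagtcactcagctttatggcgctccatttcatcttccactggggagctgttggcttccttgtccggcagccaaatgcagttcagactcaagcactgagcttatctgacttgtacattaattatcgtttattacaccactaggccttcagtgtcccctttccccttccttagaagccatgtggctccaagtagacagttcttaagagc
Tnfsf12 and Tnfsfm13, shared start (chr11:69696099-69696348, minus strand): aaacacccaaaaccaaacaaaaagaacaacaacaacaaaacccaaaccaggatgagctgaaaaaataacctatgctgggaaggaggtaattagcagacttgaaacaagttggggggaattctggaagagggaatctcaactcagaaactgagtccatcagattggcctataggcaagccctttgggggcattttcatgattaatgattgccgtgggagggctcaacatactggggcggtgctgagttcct
Tnfrsf12a (chr17:23677450-23677699, minus strand): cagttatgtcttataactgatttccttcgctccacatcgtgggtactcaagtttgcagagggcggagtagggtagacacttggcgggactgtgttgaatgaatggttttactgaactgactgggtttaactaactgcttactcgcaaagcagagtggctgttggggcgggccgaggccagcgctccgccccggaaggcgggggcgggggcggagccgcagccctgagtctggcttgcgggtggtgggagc

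Promoters were listed for 25 of the 32 members, with 29 starts in all. In 22 of the 29 the 30 bases after the start were found in a GENCODE M21 transcript of the same gene, among them those of the printed windows. TATAAA stood in promoters of 4 members and in 12.4% of all 32851 promoters of that length, and in Tnfsf18 it begins 34 bases before the start. GAGGAAG stood in promoters of 3 members and in 10.6% of all, and in Tnfsf18 its reverse complement begins 228 bases before the start. The AP-1 letters TGANTCA stood in promoters of 5 members and in 6.75% of all. GAAA, any 2 bases and GAAA, the core of the interferon-stimulated response element, stood in promoters of 4 members and in 2.98% of all. GGGA, any 2 bases and TTCC, a form of the NF-κB motif, stood in 1.21% of all promoters and in 0 of the members' windows, which says only that these letters are absent there. These matches describe letters, and binding was not measured.

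Of the 32 members, 21 reached 1 RPKM in a library, 8 ligand and 13 receptor genes, and 12 of them had it in all libraries. Heart cells had 17 members at this level, kidney cells 18 and liver cells 15. Another 11 members stayed below it, at no more than 0.928 RPKM, and 6 of these had 0 reads in every library. Of the 21 members, 7 were highest in heart, 4 in kidney and 10 in liver cells. By class, 4 ligand genes were highest in heart, 1 in kidney and 3 in liver cells, while among receptor genes 3, 3 and 7 were highest there in the same order. The 3 ligand genes highest in liver cells include Tnfsf13 and Tnfsfm13, a read-through gene that shares exons and reads with it. Shares of all genes highest in each library are not given beside these counts, which describe the members alone.

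**Figure D1:**
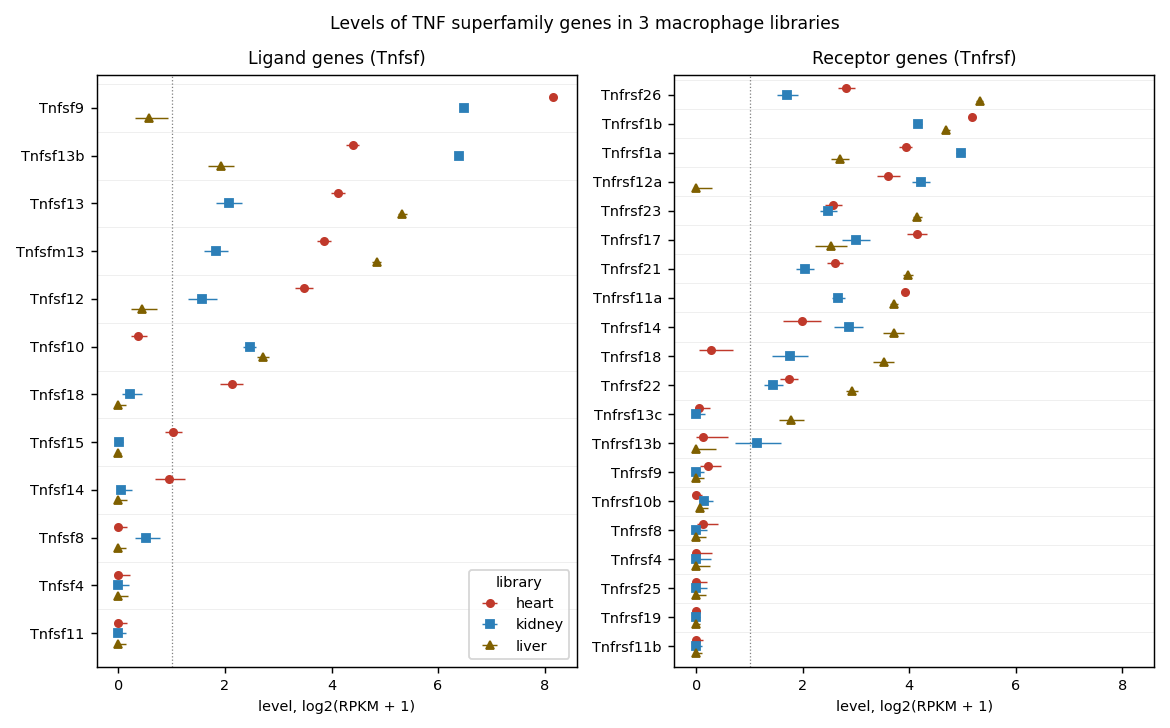
Levels of the 12 ligand and 20 receptor genes on a log2(RPKM + 1) axis, with circles for heart, squares for kidney and triangles for liver cells, bars for exact 95% Poisson intervals, and a dotted line at 1 RPKM. Tnfsf9 stands at 283 RPKM in heart and 88.2 in kidney cells against 0.488 in liver cells, while Tnfrsf26 is highest in liver cells at 38.9 RPKM.

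Between heart and liver cells 8 of the 21 members, 38.1%, were past 4-fold, against 12.5% of all genes compared. Higher in heart were 5 members, against 5.33% of all genes, and lower 3, against 7.13%. The 5 were Tnfsf9, Tnfsf12, Tnfsf13b, Tnfsf18 and Tnfrsf12a, and the 3 were Tnfsf10, Tnfrsf18 and Tnfrsf26. Between heart and kidney cells 3 members, 14.3%, were past 4-fold against 7.50% of all genes, with 2 higher in heart, against 2.40% of all genes, and 1 lower, against 5.10%. Those were the ligand genes Tnfsf13, Tnfsfm13 and, lower, Tnfsf10. Reads on exons shared by Tnfsf13 and the read-through gene Tnfsfm13 count for both. Wherever both are named, here and for kidney minus liver, the counts of members hold this locus 2 times. Between kidney and liver cells 7 members, 33.3%, were past 4-fold against 12.7% of all genes, with 4 higher in kidney, against 7.57% of all genes, and 3 lower, against 5.10%. Higher were Tnfsf9, Tnfsf13b, Tnfrsf1a and Tnfrsf12a, and lower Tnfsf13, Tnfsfm13 and Tnfrsf26. In at least 1 comparison 11 members were past 4-fold, 52.4% of the 21, against 21.5% of all genes compared. Of these 11, 5 had RPKM of at least 1 in all libraries. The other 6 were under 1 RPKM in a library, and 9 of the 21 members passed the filter only through the libraries where they were higher, so these shares describe the members and support nothing further. With median ratio scaling the members' split for heart minus kidney was 4 higher and 0 lower. That scaling put the median difference of all genes at 0.00, against -0.23 for heart minus kidney and -0.16 for heart minus liver as deposited. Among all genes past 4-fold, 42.8% were higher for heart minus liver as deposited, 54.7% with TPM and 53.5% with median ratio scaling, and for heart minus kidney 31.9% as deposited and 45.2% with median ratio scaling. For kidney minus liver the median of all genes was 0.04 as deposited and 0.17 with TPM scaling. The median difference of the 21 members came to 0.13 between heart and liver, 0.56 between heart and kidney and -0.53 between kidney and liver.

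**Figure D2:**
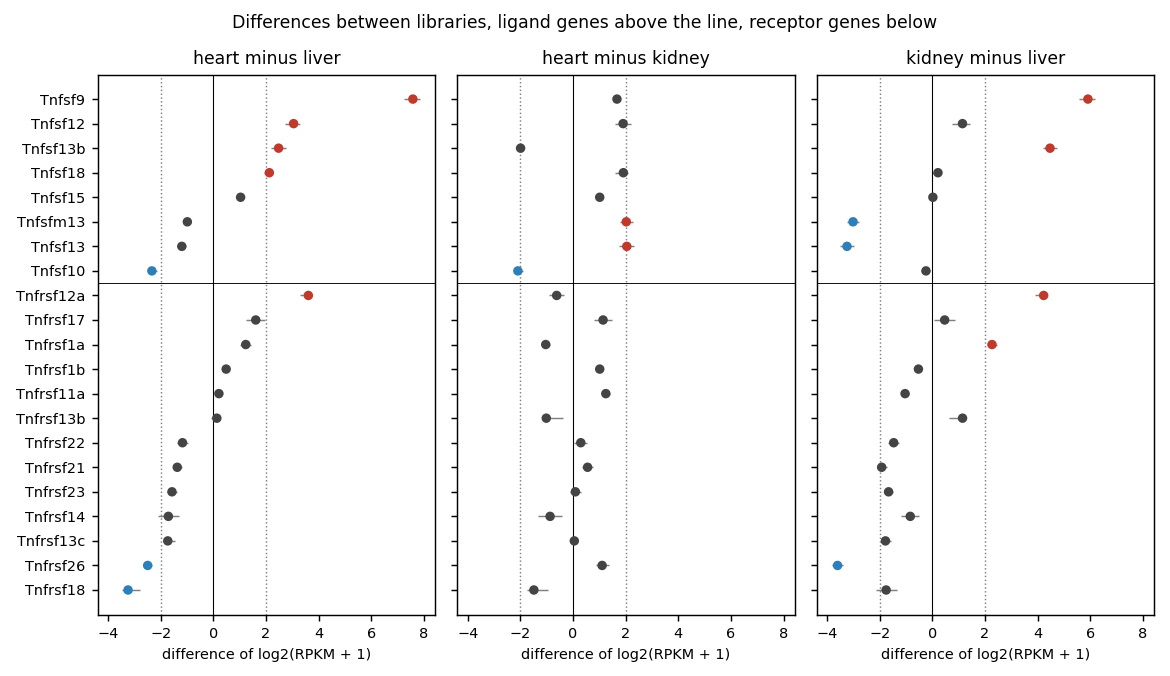
Differences of log2(RPKM + 1) of the 21 members with RPKM of at least 1 in a library, ligand genes above and receptor genes below the black line, with dotted lines at 2 log2 units in either direction, bars for the counting interval, red for higher and blue for lower past 4-fold. Tnfsf9 stands farthest out, at 7.58 for heart minus liver, and 0 of 13 receptor genes pass 4-fold for heart minus kidney.

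**Figure D3:**
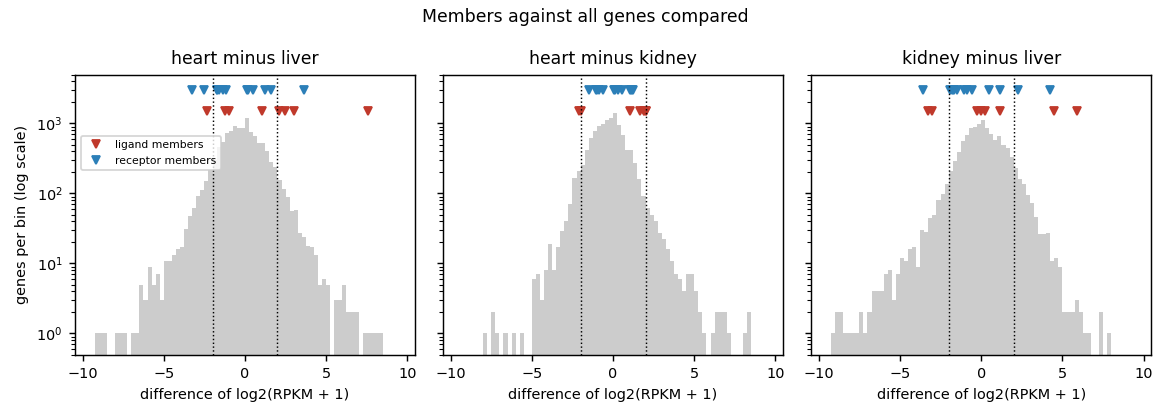
Histograms of the differences of all 11482 genes compared (grey, log count axis, dotted lines at 2 log2 units in either direction), with triangles for the 8 ligand (red) and 13 receptor members (blue). Past these lines stand 12.5%, 7.50% and 12.7% of all genes for heart minus liver, heart minus kidney and kidney minus liver.

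The costimulatory ligand genes were led by Tnfsf9, the ligand of CD137 on activated T cells. Tnfsf9 stood at 283 RPKM (276 to 291) in heart and 88.2 (84.1 to 92.6) in kidney cells, against 0.488 (0.234 to 0.897, 10 reads) in liver cells. It was high in heart and kidney cells and near the floor in liver cells, and the 3 intervals do not overlap. The ratio was 581-fold for heart over liver (316 to 1213), 181-fold for kidney over liver (98.2 to 378) and 3.21-fold for heart over kidney (3.04 to 3.40). Since these are bulk samples, fewer cells that express a gene and less RNA per cell cannot be told apart here or below. Tnfsf9 had 4.10 reads per bp of exon in heart and 1.37 in kidney cells, the only member over 2, and the counting setting -pc 3, in HOMER a limit on tags per position, could hold down such a value, although other genes reached up to 19.8 reads per bp. It shares 14.9% of its exon bases with Gm11110 on the opposite strand, and reads were counted on both strands. Tnfrsf9, its receptor, had 5 reads in heart and 0 in both other libraries.

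Tnfsf18, the ligand of the GITR receptor, stood at 3.36 RPKM (2.73 to 4.08, 100 reads) in heart, 0.156 in kidney (5 reads) and 0 in liver cells. It was at least 38.6-fold higher in heart than in liver cells and 21.5-fold higher than in kidney cells (8.92 to 67.7). Tnfsf15, the ligand of death receptor DR3, stood at 1.05 RPKM in heart, 0.011 in kidney (1 read) and 0 in liver cells, and at least 34.0-fold higher in heart than in liver cells. Tnfsf14, the ligand LIGHT, stood just under the filter at 0.928 RPKM in heart (25 reads), 0.035 in kidney (1 read) and 0 in liver cells. These 3 genes were thus low in heart cells and close to or at 0 in both others. Tnfsf8, the CD30 ligand, had 15 reads in kidney cells, 0.434 RPKM, and 0 in both others. Tnfsf4, the OX40 ligand, had 0 reads in every library.

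Genes known from endothelium were read beside these ligands, since endothelial cells also express several of them. Of 12 endothelial markers, 4 in heart, 3 in kidney and 9 in liver cells had RPKM of at least 1, with summed levels of 348, 14.2 and 305 RPKM. In heart cells 336 RPKM of this sum was Lyve1, which resident macrophages also express. Cdh5 stood at 0.766 RPKM in heart, 0.032 in kidney and 52.9 in liver cells, and Pecam1 at 3.15, 7.9 and 25.8 RPKM. Emcn, at 5.26, 3.955 and 0.908 RPKM, was highest in heart and lowest in liver cells, the order of Tnfsf9 and Tnfsf18. Fibroblast and mural cell markers at this level were 6, 1 and 3 of 9, with summed levels of 159, 5.07 and 16.7 RPKM, led by Dcn at 125 RPKM in heart cells. Hepatocyte markers at this level were 0, 1 and 8 of 8 and distal nephron markers 0, 6 and 0 of 8. Of 9 dendritic cell markers 6, 6 and 5 reached 1 RPKM, with summed levels of 299.6, 42.8 and 24.5 RPKM, the same order of libraries as for Tnfsf9 and Tnfsf18. Cd209a made up most of the heart sum, at 270.1 RPKM in heart, 10.9 in kidney and 0 in liver cells. Flt3, a defining marker, stood at 0.019, 0 and 0 RPKM. Batf3, at 1.37, 12.2 and 10.6 RPKM, and Clec9a, at 0.126, 7.24 and 1.29 RPKM, were lowest in heart cells, unlike Tnfsf9 and Tnfsf18. For heart minus kidney Cd209a was the 1 dendritic cell marker past 4-fold higher, and these 2 were lower, beside 2.40% and 5.10% of all genes. The part of these cells in the ligand levels was not tested.

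The B cell ligand genes went different ways. Tnfsf13b, which encodes BAFF, a survival factor of B cells, stood at 20.1 RPKM (18.4 to 22.0) in heart, 82.8 (79.4 to 86.4) in kidney and 2.79 (2.21 to 3.48) in liver cells. It was highest in kidney cells, with no overlap of the intervals. The ratio was 29.7-fold for kidney over liver (23.7 to 37.6) and 7.20-fold for heart over liver (5.66 to 9.25), and it was 4.12-fold lower in heart than in kidney cells (3.73 to 4.55), a difference of -1.99 log2 units that stays just short of 4-fold with the added 1. Tnfsf13, which encodes APRIL, a factor of plasma cells, was highest in liver cells. It stood at 16.5 RPKM (14.9 to 18.2) in heart, 3.23 (2.58 to 4.0) in kidney and 39.2 (36.9 to 41.6) in liver cells. Tnfsf13 was 12.1-fold lower in kidney than in liver cells (9.71 to 15.3) and 5.10-fold higher in heart than in kidney cells (4.02 to 6.53). The order of the libraries was thus kidney, heart, liver for BAFF and liver, heart, kidney for APRIL. Of 5 monocyte markers 5, 3 and 4 reached 1 RPKM in heart, kidney and liver cells, with summed levels of 263, 238 and 406 RPKM. Ccr2, at 117, 227 and 54.2 RPKM, had the order of Tnfsf13b, and Plac8, at 129, 5.69 and 337 RPKM, that of Tnfsf13. Ly6c2, at 9.74, 5.58 and 8.41 RPKM, and Chil3, at 4.89, 0 and 0 RPKM, were highest in heart cells and had neither order. The part of monocytes in these levels was not tested.

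Tnfsf12, which encodes TWEAK, lies next to Tnfsf13 on chromosome 11, and Tnfsfm13 is a read-through gene over both. Tnfsf12 stood at 10.2 RPKM (8.95 to 11.5) in heart, 1.98 in kidney and 0.354 in liver cells (10 reads). It was 28.7-fold higher in heart than in liver cells (15.4 to 60.6) and 5.13-fold higher than in kidney cells (3.79 to 7.06). Tnfsfm13 stood at 13.5, 2.55 and 27.8 RPKM in heart, kidney and liver cells, in the same order as Tnfsf13. In the GENCODE M21 annotation Tnfsfm13 shares 78.1% of its exon bases with other genes, while Tnfsf13 shares 60.0% with Tnfsfm13 and the antisense gene Tnfsf13os, and Tnfsf12 shares 48.3% with Tnfsfm13. The 1032 reads on Tnfsfm13 in liver cells stood beside 1097 on Tnfsf13 and 10 on Tnfsf12, and the 432 in heart cells beside 398 and 248. Reads on shared exons were counted for each gene, so the level of the read-through transcript itself is uncertain. Over the ligand genes without Tnfsfm13, Tnfsf9 made up 84.4% of the summed 336 RPKM in heart cells. In kidney cells Tnfsf9 made up 48.6% and Tnfsf13b 45.7% of 181 RPKM, and in liver cells Tnfsf13 made up 81.0% of 48.4 RPKM.

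Tnfsf10, which encodes the death ligand TRAIL, was low in heart cells. It stood at 0.294 RPKM (0.182 to 0.450, 21 reads) in heart, 4.52 (4.06 to 5.02) in kidney and 5.55 (5.06 to 6.08) in liver cells. It was 18.9-fold lower in heart than in liver cells (12.2 to 30.8) and 15.4-fold lower than in kidney cells (9.89 to 25.1). The kidney and liver levels lay close together, with a ratio of 0.814 for kidney over liver (0.706 to 0.938). The difference between heart and kidney cells, -2.09 log2 units as deposited, came to under 4-fold with median ratio scaling. Tnfsf11, which encodes RANKL, had 0 reads in every library.

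**Figure D4:**
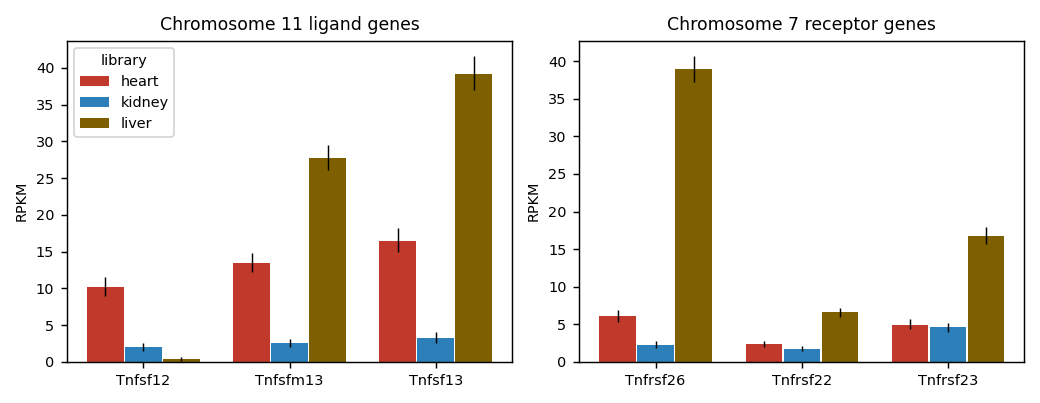
Levels in RPKM (bars from 0, with exact 95% Poisson intervals) of the ligand genes of chromosome 11 on the left and of the receptor genes of chromosome 7 on the right, in heart, kidney and liver cells from left to right. Tnfsf12 is lowest in liver cells at 0.354 RPKM while Tnfsf13 is highest there at 39.2 RPKM, and Tnfrsf26, Tnfrsf22 and Tnfrsf23 are each highest in liver cells.

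Both TNF receptor genes were read in every library, in different orders. Tnfrsf1a, the death domain receptor TNFR1, stood at 14.3 RPKM (13.0 to 15.7) in heart, 30.3 (28.4 to 32.2) in kidney and 5.52 (4.78 to 6.34) in liver cells. It was 5.49-fold higher in kidney than in liver cells (4.71 to 6.42), past 4-fold, and 2.58-fold higher in heart than in liver cells (2.18 to 3.07). Tnfrsf1b, TNFR2, which has no death domain, stood at 35.2 RPKM (33.8 to 36.6) in heart, 16.9 (16.0 to 17.8) in kidney and 24.9 (23.8 to 26.0) in liver cells, and was past 4-fold in 0 of the 3 comparisons. Tnfrsf1b was thus above Tnfrsf1a in heart and liver cells and below it in kidney cells. Their ligand gene Tnf, which is no member by symbol, stood at 263, 155 and 125 RPKM in heart, kidney and liver cells.

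Tnfrsf12a, the TWEAK receptor Fn14, had 0 reads in liver cells (interval 0 to 0.230 RPKM) and stood at 11.2 RPKM (9.49 to 13.1) in heart and 17.7 (15.6 to 20.0) in kidney cells. It was at least 59.8-fold higher in heart and at least 94.7-fold higher in kidney than in liver cells. Ligand and receptor of this pair were both near the floor in liver cells, with Tnfsf12 at 10 reads there. Tnfrsf11a, the RANK receptor of osteoclast precursors, stood at 14.1 RPKM (13.3 to 15.0) in heart, 5.37 (4.86 to 5.91) in kidney and 12.1 (11.4 to 12.9) in liver cells. Tnfrsf11b, the decoy osteoprotegerin, had 0 reads in every library, as had the ligand Tnfsf11.

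Both TRAIL decoy receptor genes, Tnfrsf22 and Tnfrsf23, and their neighbour Tnfrsf26 were highest in liver cells. Tnfrsf26, Tnfrsf22 and Tnfrsf23 lie side by side on the minus strand of chromosome 7, and the decoy role is known from the mouse. Tnfrsf26, whose ligand is not established, stood at 6.06 RPKM (5.35 to 6.84) in heart, 2.28 (1.86 to 2.75) in kidney and 38.9 (37.2 to 40.7) in liver cells. It was 6.42-fold lower in heart (5.64 to 7.34) and 17.1-fold lower in kidney (14.05 to 21.0) than in liver cells. Tnfrsf23 stood at 4.96, 4.59 and 16.8 RPKM and Tnfrsf22 at 2.35, 1.73 and 6.57 RPKM in heart, kidney and liver cells. These 2 genes stayed under 4-fold in every comparison, and the heart and kidney intervals of Tnfrsf23 overlapped. The 3 genes are related in sequence, and how reads that match several of them were placed is not given in the sources used here. Tnfrsf10b, the death receptor of TRAIL, had 0 reads in heart, 5 in kidney and 3 in liver cells. Tnfrsf21, death receptor 6, stood at 5.07, 3.13 and 14.7 RPKM in heart, kidney and liver cells and was also highest in liver cells, at -1.93 log2 units for kidney minus liver.

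Receptor genes known from lymphocytes differed widely in level. Tnfrsf17, BCMA of plasma cells, stood at 16.7 RPKM (14.4 to 19.2) in heart, 7.01 (5.62 to 8.64) in kidney and 4.81 (3.71 to 6.13) in liver cells, under 4-fold in every comparison. Tnfrsf13c, the BAFF receptor of B cells, had 1 read in heart and 0 in kidney cells, against 78 in liver cells, 2.45 RPKM. Tnfrsf13b, TACI, stood at 0.093 RPKM in heart (1 read), 1.21 in kidney (14 reads) and 0 in liver cells. Tnfrsf18, GITR of regulatory T cells, stood at 0.207 RPKM (3 reads) in heart, 2.38 (37 reads) in kidney and 10.5 (175 reads) in liver cells. Tnfrsf18 was 50.4-fold lower in heart (17.0 to 247) than in liver cells, and its ligand gene Tnfsf18 had the opposite order. Tnfrsf18 shares 27.2% of its exon bases with Gm16008 on the opposite strand. Tnfrsf14, HVEM, which binds LIGHT, stood at 2.98 RPKM (2.11 to 4.08) in heart, 6.26 (5.01 to 7.73) in kidney and 12.0 (10.3 to 13.9) in liver cells. Tnfrsf8, CD30, had 2 reads in heart and 0 in both others, and Tnfrsf4, OX40, Tnfrsf19, TROY, and Tnfrsf25, DR3, had 0 reads in every library.

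Lymphocyte markers were read beside these receptor genes. Of 13 B cell and plasma cell markers, 5 in heart, 3 in kidney and 11 in liver cells had RPKM of at least 1, with summed levels of 124, 192 and 477 RPKM. Cd79b made up 168 RPKM of the kidney sum. Cd79a stood at 0.524, 0.049 and 34.1 RPKM in heart, kidney and liver cells and Jchain, the antibody joining chain, at 0, 0 and 81.95, while Pax5 had 0 reads in every library. Prdm1, at 15.5, 5.22 and 1.79 RPKM, had the order of Tnfrsf17. For heart minus liver Prdm1 was the 1 marker past 4-fold higher and 6 were lower, beside 5.33% and 7.13% of all genes. Of the 17 markers found of T and NK cells, 6, 2 and 7 reached 1 RPKM, with summed levels of 27.1, 17.5 and 88.9 RPKM, and Cd3e stood at 0, 0 and 5.91 RPKM. The summed markers, Tnfrsf13c and Tnfrsf18 were highest in liver cells, while Tnfrsf17 was lowest there and Tnfrsf13b had 0 reads there. Between heart and kidney cells the T and NK cell sum was higher in heart and Tnfrsf18 was lower. Cd4 made up most of the kidney sum. It stood at 3.72, 15.5 and 4.998 RPKM in heart, kidney and liver cells, lower in heart than in kidney cells as was Tnfrsf18. Il7r, at 5.14, 0.281 and 1.98 RPKM, was highest in heart cells. For heart minus kidney 3 of these markers were past 4-fold higher and 0 lower, beside 2.40% and 5.10% of all genes. The part of lymphocytes in these levels was not tested.

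Of 28 known ligand and receptor pairs, including those of Tnf, Fas, Cd40 and other genes without the prefix, both genes had RPKM of at least 1 for 5 pairs in heart, 9 in kidney and 8 in liver cells, and for 4 pairs in all libraries. These 4 were Tnf with Tnfrsf1a, Tnf with Tnfrsf1b, and Tnfsf13 and Tnfsf13b each with Tnfrsf17. In heart cells 9 pairs passed with TPM scaling, which multiplies every RPKM, and 3 when genes over 2 reads per bp were left out. Tnfsf12 with Tnfrsf12a passed in heart and kidney cells. Tnfsf10 with the decoys Tnfrsf22 and Tnfrsf23 passed in kidney and liver cells. Tnfsf13 and Tnfsf13b with Tnfrsf13b passed in kidney cells, where Tnfrsf13b rested on 14 reads. Tnfsf13b with Tnfrsf13c and Cd40lg with Cd40 passed in liver cells alone. There Tnfrsf13c stood at 2.45 RPKM (78 reads) and Cd40lg at 1.35 RPKM (28 reads). Tnfsf9, at 283 RPKM in heart and 88.2 in kidney cells, was in 0 of these pairs, since Tnfrsf9 stayed under 1 RPKM in every library.

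**Figure D5:**
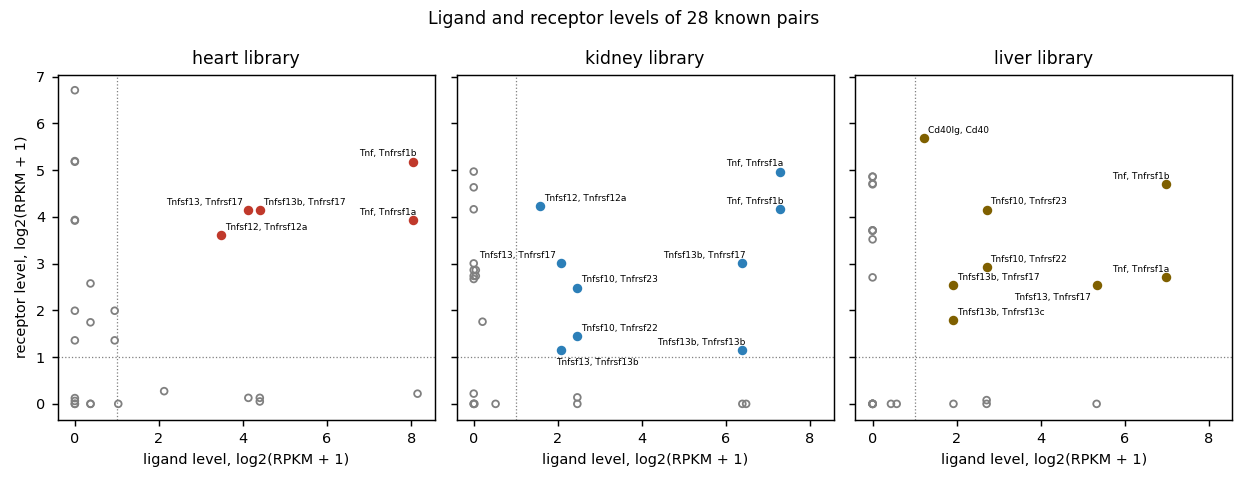
Ligand against receptor levels of 28 pairs in each library, both on log2(RPKM + 1) axes, with filled and named points where both genes reach 1 RPKM (dotted lines) and open circles elsewhere. Heart cells show 5 filled points, kidney cells 9 and liver cells 8.

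Superfamily genes without the prefix numbered 7 ligands and 8 receptors. Of the ligand genes only Tnf and Cd40lg passed the filter, with Cd40lg, the CD40 ligand of T cells, at 1.35 RPKM in liver cells and 0 in both others, and 0 were past 4-fold in any comparison. Of the receptor genes 3 passed, and 1 was past 4-fold in each comparison. Fas, the receptor of Fas ligand, stood at 103, 7.02 and 25.2 RPKM in heart, kidney and liver cells, a difference of 3.7 log2 units for heart minus kidney. A shorter Fas transcript stood at 70.9, 8.18 and 5.54 RPKM, so the order of kidney and liver depended on the transcript. Ltbr, the lymphotoxin beta receptor, stood at 1.56, 5.66 and 28 RPKM, at -3.50 log2 units between heart and liver and -2.12 between kidney and liver. It is the neighbour of Tnfrsf1a on chromosome 6, which had its lowest level in liver cells. Cd40, the receptor that licenses antigen-presenting cells, stood at 35.5, 23.8 and 50.2 RPKM.

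Of 31 genes of receptor adaptors and kinases, 26 passed the filter. For heart minus liver 2 were past 4-fold higher and 5 lower, for heart minus kidney 2 and 2, and for kidney minus liver 1 and 2. Of all genes compared, 5.33% were past 4-fold higher and 7.13% lower for heart minus liver, and 2.40% and 5.10% for heart minus kidney. For kidney minus liver these shares were 7.57% and 5.10%. Birc3, the inhibitor cIAP2, stood at 269, 52.0 and 38.0 RPKM in heart, kidney and liver cells and was 2.79 log2 units higher in heart than in liver cells. Traf1, an adaptor of TNFR2 and CD137, stood at 9.6, 21.1 and 0.336 RPKM, low in liver cells as were Tnfsf9 and Tnfrsf12a. Lower in heart than in liver cells were Rnf31, a ligase of linear ubiquitin chains, and Mlkl, the effector of necroptosis. Rnf31 stood at 0.741 RPKM in heart against 33.2 in liver cells. Mlkl stood at 2.30, 9.50 and 59.6 RPKM in heart, kidney and liver cells, and was also lower in kidney than in liver cells, at -2.53 log2 units. The median difference of the 26 genes was -0.17, -0.20 and -0.04 for heart minus liver, heart minus kidney and kidney minus liver, beside -0.16, -0.23 and 0.04 for all genes compared. Of 16 NF-κB subunits and inhibitors, 4 were past 4-fold higher and 0 lower for heart minus liver, 2 higher and 1 lower for heart minus kidney, and 1 higher and 0 lower for kidney minus liver. Their median differences were 1.01, 0.59 and 0.55, and the shares of all genes given above stand beside these counts as well.

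Immediate early and heat shock genes, known to respond to cell isolation as well as to signalling, were read at a summed 1391 RPKM in heart, 1909 in kidney and 845 in liver cells. All 16 reached 1 RPKM throughout. For heart minus liver 2 were past 4-fold higher and 0 lower, for heart minus kidney 0 and 1, and for kidney minus liver 3 and 0. The shares of all genes were 5.33% and 7.13%, 2.40% and 5.10%, and 7.57% and 5.10% in the same order. The summed level of these 16 genes was lowest in liver cells, as was Tnfsf9, but higher in kidney than in heart cells, unlike Tnfsf9. Single genes differed in order. Ier3, at 210, 125 and 34.9 RPKM in heart, kidney and liver cells, and Hspa1b, at 37.0, 30.7 and 5.96, had the order of Tnfsf9. These were the 2 past 4-fold for heart minus liver. Fosb, Junb and Dusp1 had this order too. Fos, at 216, 350 and 135 RPKM, and Dnajb1, at 22.3, 142 and 6.95, were highest in kidney cells, and Jun in liver cells. The part of cell isolation in the members' levels was not tested.

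Neighbouring members did not share one level. Superfamily genes within 200000 bp of each other formed 9 groups on the genome. Tnfsf9 and Tnfsf14 lie on chromosome 17 at 57105385 to 57107757 and 57189474 to 57194181, with Cd70 between them at 0 reads in every library, and both were highest in heart cells, at 283 and 0.928 RPKM. Tnfsf18 and Tnfsf4 are neighbours on chromosome 1, of which Tnfsf18 had 100 reads in heart cells and Tnfsf4 had 0. Tnfsf15 and Tnfsf8 are neighbours on chromosome 4, with Tnfsf15 read in heart (88 reads) and Tnfsf8 in kidney cells (15 reads). Tnfrsf18 and Tnfrsf4 are neighbours on the same chromosome, with 175 and 0 reads in liver cells. Tnfrsf26, Tnfrsf22 and Tnfrsf23 reached 1 RPKM in every library, each with its highest level in liver cells.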

How the data were processed

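RNA-seq of macrophages from 3 tissues, 1 library each, was deposited by the authors as RPKM of 34711 RefSeq transcripts. Per the file headers the values came from HOMER's analyzeRepeats.pl on mm10, with exon reads of both strands, a total of 1000000 per library and -pc 3, which in HOMER limits tags per position. The submitters' processing notes name CASAVA, STAR and mm10 without versions. The column names say FPKM, while RPKM times exon length in kb summed to 1000000. Whole reads were recovered. Values of up to 500 reads on transcripts of up to 1500 bp (3070 in the heart, 2830 in the kidney and 2279 in the liver library), were all within 0.1 of a whole read.

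The longest coding transcript of each symbol was kept, or the longest noncoding one where there was none. Calls and read recovery were tested on simulated data, where more unchanged genes were called than the limit first set, and that limit was loosened after this was seen. The members and lists were chosen with earlier results of these data known. Members are given with values in every library if past 4-fold in a comparison or at 10 RPKM or more, and others in short form. Of the other lists, values are given for selected genes. Alternatives were pseudocounts of 0.1 and 5, TPM and median ratio scaling, no filter, the transcript with the highest mean, and leaving out genes over 2 reads per bp. Python 3.11.15, numpy 2.4.6, scipy 1.17.1 and pandas 2.3.3 were used.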

Additional observations from a re-analysis of the deposited data

How the results depend on the processing

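The 11 members past 4-fold gave 18 differences past it over the comparisons, and 0 of these changed sign under any alternative in which the gene was kept. All 18 stayed past 4-fold with a pseudocount of 0.1, with TPM scaling, without the filter and with the transcript of highest mean RPKM. With median ratio scaling 17 did, and with a pseudocount of 5 it was 7. Leaving out genes over 2 reads per bp removed Tnfsf9 and left the other 16 past it. For heart minus kidney, where 3 members were past 4-fold (2 higher and 1 lower), the counts depended on the setting. They were 9 (5 higher and 4 lower) with a pseudocount of 0.1, 0 (0 and 0) with a pseudocount of 5, 7 (5 and 2) with TPM scaling and 4 and 0 with median ratio scaling. Among all genes, 275 were past 4-fold higher and 586 lower as deposited. With TPM scaling these were 685 and 1293, and with median ratio scaling 342 and 415. TPM scaling multiplies every RPKM, so the added 1 weighs less. Without the read-through gene Tnfsfm13, an alternative added after the data were seen, 1 member was higher. For heart minus liver a pseudocount of 5 left 1 member, 1 higher and 0 lower. For kidney minus liver the count was 12, with 6 lower, for a pseudocount of 0.1, and 5 were lower with TPM scaling. Of all genes, 932 were lower there with TPM scaling, against 586 as deposited. A larger pseudocount shrinks differences of low genes by construction and a smaller one widens them, for members and all other genes alike. No paired analysis was possible because each tissue has 1 library. Counts under 20 reads, as for Tnfsf9 and Tnfsf12 in the liver library, limit the ratios built on them.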
